A study of Mus musculus with 9 samples.

Results

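Granulocyte-monocyte progenitors (GMPs) of normal genotype are described here by the level of each gene on 3 arrays of wild-type (WT) cells, called WT 1, WT 2 and WT 3. They are 3 of the 9 arrays of the series. Its other arrays hold GMPs from recipients of leukaemic spleen cells and were not used, so no groups were compared and no test was made. The arrays were taken by title. Each gene symbol was represented by its probe with the highest mean over these 3 arrays, which gave 21872 genes from 37877 probes.

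The cells came from the marrow of C57BL/6 recipient mice, 1 month after these had been given WT bone marrow. They were sorted for Kit and CD16/32 and against lineage antigens, Sca1 and CD150. They are thus progenitors of a transplanted host and not of an unmanipulated mouse, and whether cells of the host remained among them is not given in the labels. The description field calls the hosts secondary recipients, and the labels name the 3 arrays biological triplicates. The labels leave out the age and sex of the mice and whether RNA of several mice was pooled for an array. Total RNA was labelled with the dye Cy3, and all 3 arrays (Agilent, SurePrint G3 Mouse GE 8x60K) lay on 1 slide.

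GMPs are marrow progenitors that give rise to neutrophils and monocytes. They make the proteases and peroxidase of the primary (azurophil) granules first. Proteins of the secondary granules, such as lactoferrin, follow at a later stage of neutrophil maturation and are driven by the factor C/EBP epsilon. Commitment to the neutrophil or the monocyte path is known to depend on the factors PU.1, C/EBP alpha, GFI1 and IRF8.

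Values are log2 intensities as deposited, between 5.66 and 18.24, and the SD is over n = 3 arrays throughout. Intensity also depends on the probe, so an order of brightness is an order of probes and not of RNA amounts. The floor of the scale was set from 1382 olfactory, vomeronasal, taste and trace amine receptor genes, which blood progenitors are not known to use. Their median level was 6.29 and the 95th percentile of their means, 7.83, was taken as the upper edge of the floor. Of the 21872 genes, 11780 (53.9%) lay near the floor, 4346 (19.9%) were low (up to 10), 5053 (23.1%) were in the middle (10 to below 14) and 693 (3.17%) were bright (14 or more). The median gene stood at 7.51, inside the floor. A level above 10 was still read for 3 sensory receptor genes, Olfr544 at 12.38 ± 0.05, Vmn1r87 at 12.02 ± 0.13 and Olfr122 at 10.04 ± 0.23, and they are named here because they were the only ones. A level above the floor therefore shows signal of that probe, and whether the named gene is the source was not tested.

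**Figure D1:**
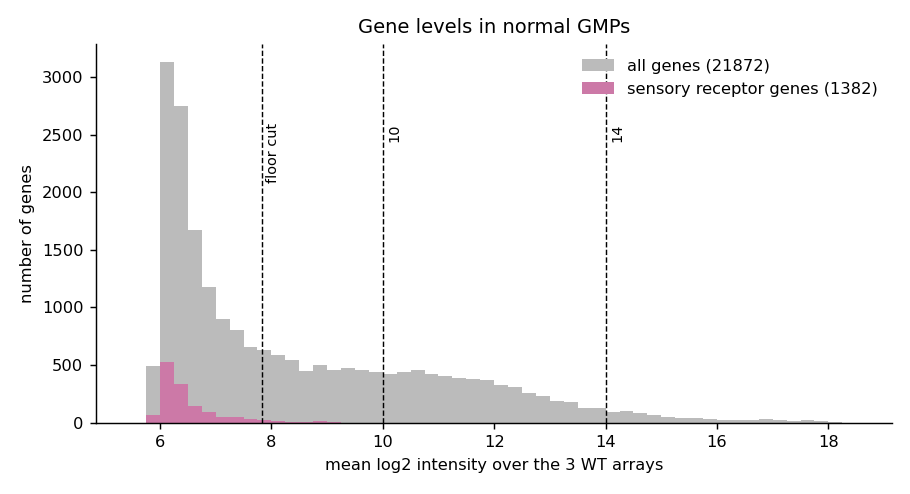
Number of genes (vertical axis) by mean log2 intensity over the 3 WT arrays (horizontal axis), for all 21872 genes (grey) and the 1382 sensory receptor genes (pink). Dashed lines mark the floor edge at 7.83 and the levels 10 and 14; most sensory receptor genes lie left of the first line.

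Most genes of the sort markers lay where the labels place them. Kit, the stem cell factor receptor used to select the cells, read 12.54, 12.50 and 12.76 in WT 1, WT 2 and WT 3. The genes of CD16 and CD32 read 12.08, 11.63 and 11.53 (Fcgr3) and 10.89, 10.88 and 10.85 (Fcgr2b). On these markers the 3 arrays lay close together, and the widest spread was that of Fcgr3, highest in WT 1. Slamf1, the gene of CD150, was near the floor at 6.06 ± 0.05. Among genes of lineage antigens, Ly6g (6.52 ± 0.05), Cd4 (7.52 ± 0.02) and Cd8a (7.26 ± 0.10) were near the floor, and Itgam, which encodes CD11b, was just above it at 8.05 ± 0.11. The clearest exception was Cd3e, a chain of the T cell receptor complex, at 11.00, 11.08 and 10.86. The other chains of that complex were near the floor: Cd3g at 6.05 ± 0.07, Cd3d at 6.41 ± 0.07 and Cd247 at 7.14 ± 0.09 (the last 2 chosen after their values were seen). Ptprc, the pan-leukocyte antigen CD45, was low at 9.32 ± 0.20. The gene of Sca1, Ly6a, has no named probe in the table used here.

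For lists of other cell types, which are short, the members near the floor were counted, beside 53.9% of all genes. Of 15 measured B cell genes 11 were near the floor, as were 13 of 17 T cell and NK cell genes. For stroma and endothelium the count was 8 of 12, for haematopoietic stem cells 8 of 13, and for MHC class II and dendritic cells 11 of 18. On lists this short, these counts are close to the share of all genes. The count was lower for erythroid genes (8 of 20), megakaryocyte genes (5 of 13) and genes of mast cells, basophils and eosinophils (7 of 19). Single probes in these lists stood far above the rest. Cd79b, a B cell receptor chain, read 12.15 ± 0.06, while its partner Cd79a (chosen after its value was seen) read 7.26 ± 0.09 and Rag1, which cuts antigen receptor genes, 5.99 ± 0.11. Siglech, a receptor of plasmacytoid dendritic cells, was bright at 15.18, 15.82 and 15.76, but its second probe read 7.34, which is near the floor. Lepr, the leptin receptor of marrow stroma, read 11.98 ± 0.16 on 1 probe, and its others 6.68 and 6.19. Pdgfra, a receptor of mesenchymal cells, was at 6.04 ± 0.08. Of the stem cell genes, Tal1 (11.32 ± 0.26) and Meis1 (11.17 ± 0.20), both transcription factors, were in the middle, Cd34 was low at 9.32 ± 0.13, and Hoxb5 was near the floor at 6.16 ± 0.03.

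**Figure D2:**
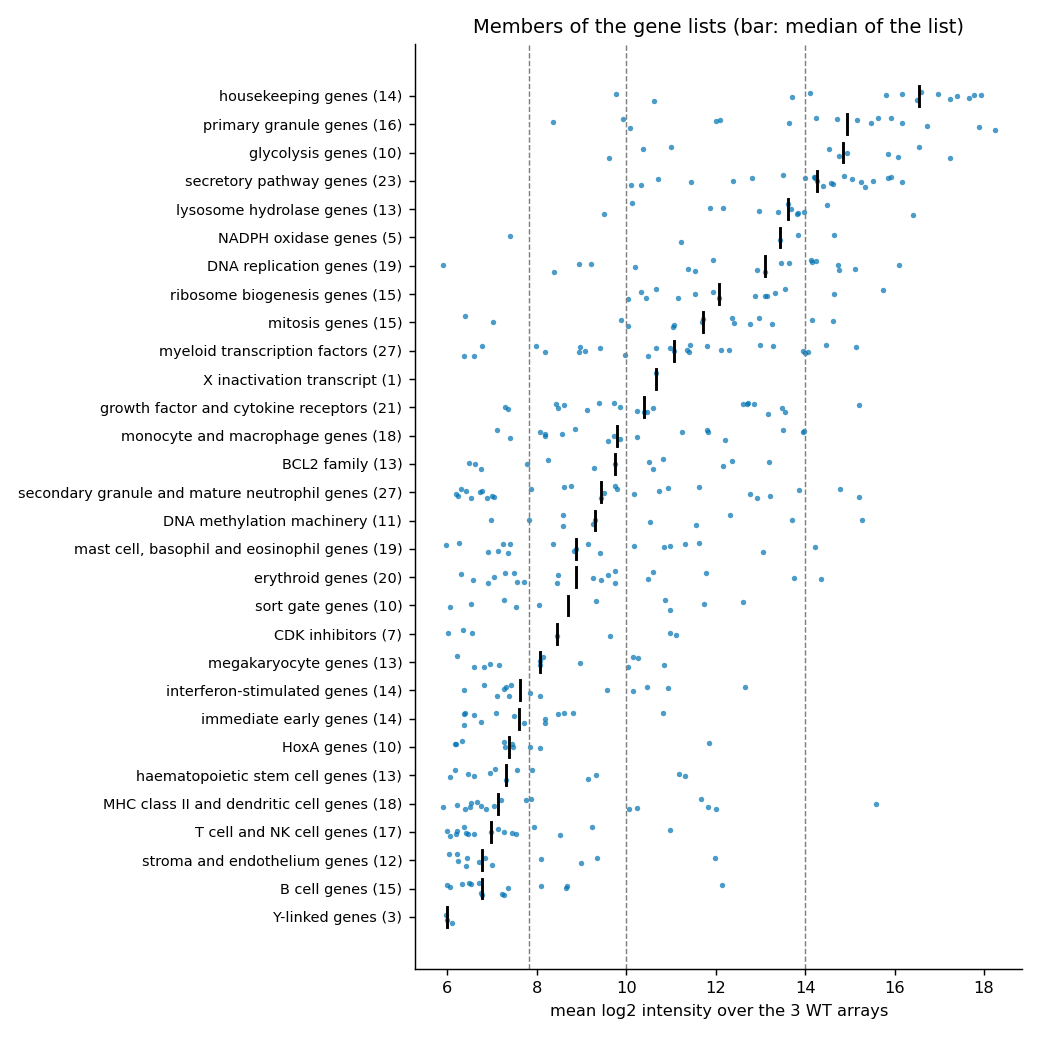
Mean log2 intensity over the 3 WT arrays (horizontal axis) of every measured member of 30 gene lists (rows, with the number of measured members), 1 point per gene, ordered by the median of the list (black bar). Dashed lines mark 7.83, 10 and 14; housekeeping and primary granule genes lie furthest right, with medians of 16.54 and 14.93, and Y-linked genes furthest left, with a median of 6.00.

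Primary granule genes were the brightest of the lists tied to a blood cell type, with a median of 14.93 against 7.51 for all genes. Of its 16 members 10 were bright, 4 in the middle, 2 low and 0 near the floor. Mpo, myeloperoxidase, was the brightest gene of all, at 18.24 in each array, which is the highest value of the scale, so its arrays cannot be told apart. Its second probe, below that limit, read 17.77, 17.52 and 17.52. Ctsg, the granule protease cathepsin G, read 17.91, 17.92 and 17.84. Elane, neutrophil elastase, read 17.06, 16.55 and 16.55. Both lay close together across the arrays, though Elane was higher in WT 1. Srgn, the proteoglycan that packs granule proteases, followed at 16.16 ± 0.10. The dimmest members were Lyz2, a lysozyme gene with a close copy in Lyz1, at 9.93 ± 0.33, and Fcnb, the lectin ficolin B, at 8.35 ± 0.41.

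Secondary granule and mature neutrophil genes had a median of 9.42 over 27 measured members. Of these 2 were bright, 8 in the middle, 7 low and 10 near the floor. The bright members were Csf3r, the receptor of G-CSF, at 15.21 ± 0.22, and Hp, haptoglobin, at 14.77 ± 0.28. S100a8, a chain of the calprotectin complex, read 13.12, 13.21 and 13.29, with little spread. S100a9, the other chain of calprotectin, read 12.18, 14.74 and 14.66, and WT 1 lay well below. Mmp25, a leukocyte metalloprotease, and Stfa1, a stefin with near-identical copies, were the dimmest at 6.24 ± 0.06 and 6.20 ± 0.03.

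The promoters of 3 primary and 3 secondary granule genes are shown as examples. Mpo and Elane were among the 4 brightest primary granule genes. Prtn3 was not, and Ctsg, brighter than Elane, is not shown. The 3 secondary granule genes had the largest drops in WT 1 among named genes. The sequences are from RefSeq (GRCm38.p6) and run 5′ to 3′ on the strand of the gene, 250 bases before the start and 50 from it. They lie at chr11:87793534-87793833 (Mpo, plus strand), chr10:79886062-79886361 (Elane, plus), chr10:79879417-79879716 (Prtn3, plus), chr9:109849407-109849706 (Camp, minus), chr9:110419558-110419857 (Ngp, plus) and chr9:111019042-111019341 (Ltf, plus). Prtn3 encodes proteinase 3, Camp the antimicrobial cathelicidin, Ngp a neutrophilic granule protein and Ltf lactoferrin. Capitals mark matches on either strand to 4 motifs: TATAAA for the TATA box, TTGCNNAA for C/EBP factors, GAGGAA for ETS factors such as PU.1, and AACNGNC for MYB.
Mpo: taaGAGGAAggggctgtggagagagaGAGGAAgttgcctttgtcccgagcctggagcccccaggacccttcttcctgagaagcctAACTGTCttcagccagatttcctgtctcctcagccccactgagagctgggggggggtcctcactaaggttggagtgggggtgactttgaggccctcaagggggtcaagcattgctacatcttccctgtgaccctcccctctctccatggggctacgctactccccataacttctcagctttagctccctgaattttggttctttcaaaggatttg
Elane: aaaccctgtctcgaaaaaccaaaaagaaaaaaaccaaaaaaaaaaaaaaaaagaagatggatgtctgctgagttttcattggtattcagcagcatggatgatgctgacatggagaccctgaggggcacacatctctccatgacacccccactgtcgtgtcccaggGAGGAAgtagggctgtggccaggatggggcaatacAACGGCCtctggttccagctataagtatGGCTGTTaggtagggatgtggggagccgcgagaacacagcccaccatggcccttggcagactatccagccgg
Prtn3: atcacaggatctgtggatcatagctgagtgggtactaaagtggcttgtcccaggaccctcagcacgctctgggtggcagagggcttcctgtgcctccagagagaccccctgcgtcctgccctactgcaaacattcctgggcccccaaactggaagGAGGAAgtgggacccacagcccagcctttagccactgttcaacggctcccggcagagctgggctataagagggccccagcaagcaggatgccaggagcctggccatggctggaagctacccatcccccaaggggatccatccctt
Camp: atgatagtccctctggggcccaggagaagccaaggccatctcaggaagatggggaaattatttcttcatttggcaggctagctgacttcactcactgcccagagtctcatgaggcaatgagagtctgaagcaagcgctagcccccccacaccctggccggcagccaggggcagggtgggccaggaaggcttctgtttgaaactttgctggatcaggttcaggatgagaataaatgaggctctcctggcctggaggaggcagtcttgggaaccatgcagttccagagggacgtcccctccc
Ngp: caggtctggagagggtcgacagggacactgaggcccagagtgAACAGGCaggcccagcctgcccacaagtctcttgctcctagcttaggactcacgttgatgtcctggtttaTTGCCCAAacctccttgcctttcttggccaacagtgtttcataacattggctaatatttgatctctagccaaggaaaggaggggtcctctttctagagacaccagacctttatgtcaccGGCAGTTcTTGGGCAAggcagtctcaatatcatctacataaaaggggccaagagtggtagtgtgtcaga
Ltf: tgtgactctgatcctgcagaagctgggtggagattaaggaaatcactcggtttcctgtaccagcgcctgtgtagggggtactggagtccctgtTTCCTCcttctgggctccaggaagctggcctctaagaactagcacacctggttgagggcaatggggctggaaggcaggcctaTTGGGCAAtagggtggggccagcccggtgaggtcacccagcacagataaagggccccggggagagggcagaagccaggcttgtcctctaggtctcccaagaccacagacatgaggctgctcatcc

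In the Mpo promoter the ETS motif began at -247 and -224 relative to the gene start, and the MYB motif at -165. Elane had 1 ETS match at -85 and MYB matches at -50 and -22, and Prtn3 had 1 ETS match at -95. Ngp had C/EBP matches at -138 and -11 and MYB matches at -208 and -19. Ltf had 1 C/EBP match at -75 and 1 ETS match at -157. None of the 6 held TATAAA, and Camp held none of the 4 motifs in this window. In Ngp the matches at -19 and -11 did not overlap. Over the lists, the ETS motif stood in 8 of 14 primary granule promoters (57.1%) and in 17 of 24 secondary granule promoters (70.8%), beside 28.3% of all 32851 promoters of the table. For the C/EBP motif the shares were 28.6%, 37.5% and 10.8%, for MYB 42.9%, 33.3% and 32.8%, and for TATAAA 14.3%, 37.5% and 13.6%. These are matches of letters and do not show binding. For the lists 1 promoter per gene was counted. The figures for all promoters count every entry, which may include several of 1 gene and genes not measured here. The median number of CpG dinucleotides was 4.5 in primary and 3 in secondary granule promoters, beside 7 in all promoters.

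The bright band, 3.17% of all genes, held genes of protein synthesis beside granule genes, among many others. Unnamed gene models made up 12.8% of the 693 bright genes and ribosomal protein genes 9.52%. Of the unnamed gene models only 3.38% were bright, close to the share over all genes. Of 76 cytosolic ribosomal protein genes 66 were bright, with a median of 16.96. The 3 near the floor were the variant genes Rpl39l (6.52), Rpl3l (6.61) and Rpl10l (7.03). Of 54 histone genes 16 were bright, led by H2ac12 (18.10 ± 0.01), H2ac11 (18.02 ± 0.04) and H2ac10 (17.93 ± 0.02), which are H2A genes of near-identical sequence whose probes may read each other. Of 13 mitochondrially encoded genes 9 were bright, among them COX2 at 17.65 ± 0.05, COX1 at 17.43 ± 0.08 and COX3 at 17.28 ± 0.06, subunits of cytochrome c oxidase. Histones and mitochondrially encoded genes were grouped after the values were seen. Housekeeping genes had a median of 16.54 and reached 17.92 ± 0.10 for Ppia, cyclophilin A, 17.78 ± 0.03 for Tpt1, the translationally controlled tumour protein, and 17.67 ± 0.07 for Actb, beta-actin. Tbp, the TATA-binding protein, was in the middle at 10.62 ± 0.04.

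Some of the 25 brightest genes have no known link particular to this cell type, and Pirb had other probes near the floor. Slc10a1, a bile acid transporter of hepatocytes, read 17.37, 17.89 and 17.82. Exosc2, a subunit of the RNA exosome, averaged 18.00, Pbld1 17.72 and Zfp628, a zinc finger protein, 17.61. Pirb, an inhibitory receptor of myeloid cells, read 17.70 on 1 probe and 7.33 and 6.64 on its other probes. What these probes bind was not tested.

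Genes of the secretory pathway, through which granule proteins pass, were bright or in the middle without exception, 15 and 8 of 23, with a median of 14.27. Sec61b, of the channel into the endoplasmic reticulum, read 16.16 ± 0.02. Rpn1, of the oligosaccharyltransferase, read 15.91 ± 0.03, and the chaperones Pdia6 and Hspa5 read 15.85 ± 0.06 and 15.52 ± 0.09. The dimmest member was Ssr1, of the translocon-associated complex, at 10.10 ± 0.07. Lysosomal hydrolases had a median of 13.62. Gla, alpha-galactosidase, led them with 16.14, 16.50 and 16.63, and was lowest in WT 1. By contrast, 10 of the 13 measured hydrolases were highest in WT 1, beside 44.5% of all genes. The median difference of WT 1 from the mean of the others was 0.20 over these hydrolases. Of the NADPH oxidase, which makes superoxide in phagocytes, the subunits Cyba (14.63 ± 0.11), Rac2 (13.83 ± 0.16), Ncf4 (13.45 ± 0.19) and Ncf1 (11.22 ± 0.30) were above the floor. Its catalytic subunit Cybb read 7.93, 7.10 and 7.16, and only WT 1 lay above the floor edge.

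Genes of growth lay mostly in the middle band. DNA replication genes had a median of 13.11 over 19 members, of which 7 were bright and 8 in the middle. The helicase subunit Mcm6 read 16.10, 16.05 and 16.12, Mcm7 15.11 ± 0.03 and the polymerase clamp Pcna 14.73 ± 0.07. Ccne2, cyclin E2, was near the floor at 5.90 ± 0.05. Mitosis genes had a median of 11.72, with 2 of 15 bright and 10 in the middle. Birc5, survivin, read 14.63 ± 0.02 and the proliferation antigen Mki67 14.15 ± 0.09. Cdk1 (7.01 ± 0.03) and Aurkb (6.38 ± 0.04), kinases that drive mitosis, read near the floor, so such a level was also read for genes that dividing cells need. All 15 ribosome biogenesis genes were above 10, 2 of them bright, with Npm1, nucleophosmin, at 15.75 ± 0.08.

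Inhibitors of cyclin-dependent kinases spread over the lower part of the scale. Cdkn2d (p19) read 11.11 ± 0.08, Cdkn1b (p27) 10.98 ± 0.20, Cdkn2c (p18) 9.64 ± 0.11 and Cdkn1a (p21) 8.46 ± 0.10. Cdkn1c (p57), Cdkn2a (p16 and p19Arf) and Cdkn2b (p15) were near the floor, at 6.54 ± 0.10, 6.35 ± 0.01 and 6.01 ± 0.07.

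Myeloid transcription factors covered the whole scale, with a median of 11.06 over 27 measured genes. In number, 3 were bright, 14 in the middle, 7 low and 3 near the floor. Myb, a factor of progenitor growth, read 15.06, 15.14 and 15.22. Cebpe, which drives secondary granule genes, read 14.28, 14.57 and 14.55. Lmo2, a bridging partner of blood cell factors, read 13.98, 14.07 and 14.17. All 3 were lowest in WT 1, by a narrow margin in each. Irf8, which favours the monocyte path, read 14.23, 13.86 and 13.76, highest in WT 1. Gfi1, a repressor needed for neutrophils, read 13.28 ± 0.08. The other C/EBP factors were in the middle, Cebpd at 12.98 ± 0.17, Cebpa at 11.80 ± 0.05 and Cebpb at 11.40 ± 0.14, apart from Cebpg, which was low at 9.08 ± 0.03. Runx1 read 10.67 ± 0.08, and its partner Cbfb lay just under 14. Spi1, the gene of PU.1, was low at 9.62, 9.37 and 9.27. Near the floor were Irf4, Klf2 (6.59 ± 0.05) and Egr1 (6.36 ± 0.12).

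Of the growth factor and cytokine receptors, which transmit the signals that keep progenitors alive and dividing, 1 was bright, 11 were in the middle, 7 low and 2 near the floor. Csf3r, the G-CSF receptor, read 14.96, 15.39 and 15.29. The chains of the GM-CSF and interleukin-3 receptors read 13.49 ± 0.08 (Csf2ra), 12.85 ± 0.14 (Il3ra), 12.73 ± 0.11 (Csf2rb) and 10.39 ± 0.12 (Csf2rb2). Ifngr1, of the interferon gamma receptor, read 13.55 ± 0.16 and Il6ra, of the interleukin-6 receptor, 12.70 ± 0.13. Flt3, a receptor of earlier progenitors, read 10.24 ± 0.18. Csf1r, the receptor of macrophage growth factor, read 10.36, 9.64 and 9.59 and was highest in WT 1. Il5ra (7.36 ± 0.11), of the eosinophil growth factor receptor, and Il1r1 (7.28 ± 0.05), the interleukin-1 receptor, were near the floor.

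**Figure D3:**
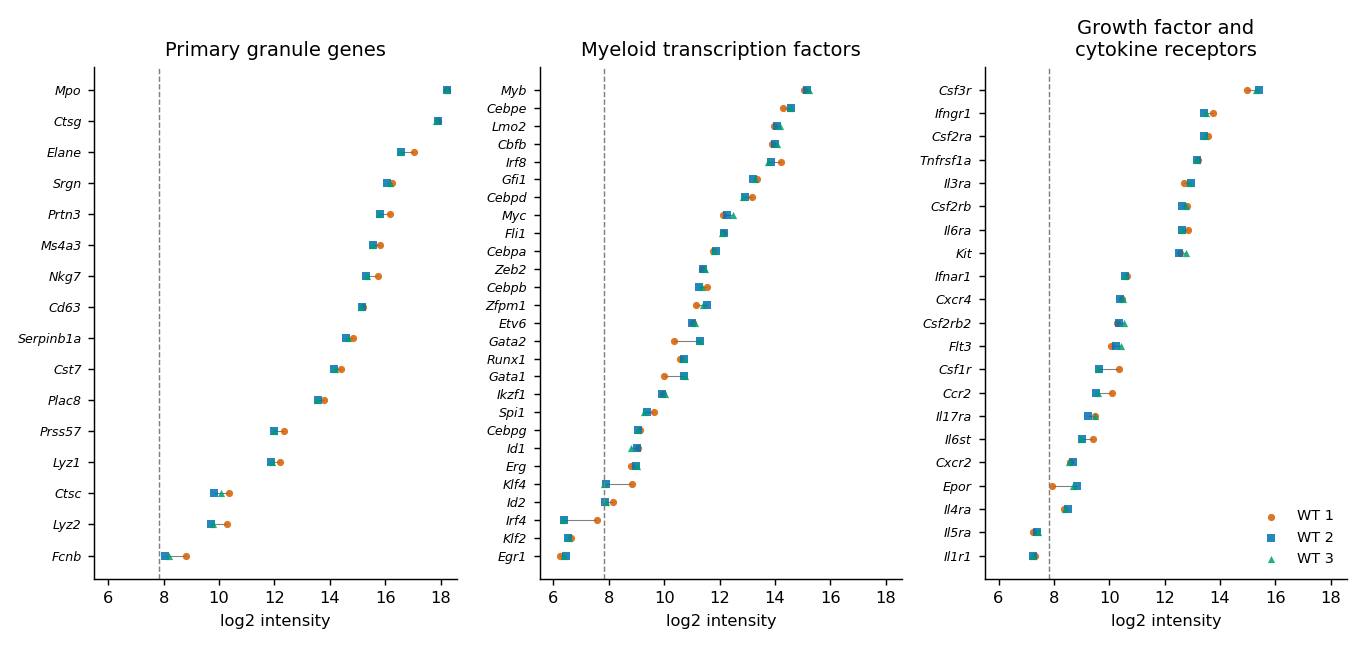
Log2 intensity (horizontal axis) of primary granule genes, myeloid transcription factors and growth factor and cytokine receptors (rows) in WT 1 (orange circles), WT 2 (blue squares) and WT 3 (green triangles), with a grey line over the span. The dashed line marks the floor edge at 7.83; in the left panel 14 of 16 genes are highest in WT 1, and in the middle panel Irf4 and Klf4 span more than 1.

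Enzymes of DNA methylation ranged from bright to near the floor. Idh2, which makes the cofactor of the TET enzymes, read 15.27 ± 0.05. Uhrf1, which guides maintenance methylation, read 13.70 ± 0.09 on 1 probe and 8.14 on its other. The methyltransferases Dnmt3b, Dnmt1 and Dnmt3a read 12.31 ± 0.04, 11.55 ± 0.10 and 10.53 ± 0.33. Tet1 (9.06, 9.45 and 9.40) and Tet2 (9.29, 9.19 and 9.29) were low, and Tet3 was near the floor at 6.98 ± 0.02. Of the HoxA genes, factors tied to self-renewal, Hoxa7 read 11.85 ± 0.10, Hoxa9 8.06 ± 0.11 and Hoxa3 7.84 ± 0.13, and the other 7 measured lay near the floor, down to Hoxa11 at 6.17 ± 0.03. The Y-linked genes Uty (6.17, 6.15 and 5.98), Kdm5d (5.96, 6.00 and 6.03) and Eif2s3y (5.89, 5.96 and 6.07) were near the floor in every array. Xist, the transcript of the inactive X chromosome, read 9.98, 10.97 and 11.01, and its second probe 8.83, 9.50 and 9.51, both lowest in WT 1.

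Genes near the centre of the distribution read at the floor. Those of the lists nearest to the median of 7.51 were Cd4, the globin gene Hbb-b2 (7.49 ± 0.81), Fosb (7.48 ± 0.19), Klf1 and Procr (each 7.55, SD 0.44 and 0.17), Hoxa6 and Gzma (each 7.45, SD 0.10 and 0.04) and Hoxa4 (7.44 ± 0.13). They include genes of erythroid cells (Klf1), stem cells (Procr) and cytotoxic lymphocytes (Gzma).

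The 3 arrays agreed closely for most genes. Across genes, which are not independent replicates, Pearson's r was 0.992 for WT 1 with WT 2, 0.996 for WT 1 with WT 3 and 0.993 for WT 2 with WT 3. The median absolute difference of a gene was 0.108, 0.0984 and 0.0736 in the same order of pairs. Bright genes had a median SD of 0.060, middle genes 0.086, low genes 0.108 and genes near the floor 0.072. The bright genes with the smallest spans, beside Mpo, were Rps3 (16.46 ± 0.01) and Rps16 (16.66), ribosomal proteins, Prelid1 (14.71), a mitochondrial lipid carrier, Nono (14.25), an RNA-binding protein, and the MHC class I gene H2-T23 (14.69). The 3 arrays spanned more than 1 log2 unit in 214 genes, 0.978% of all. In 180 of them 1 array lay more than 1 from both others.

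That span was most common in the low band (92 of 4346 genes, 2.12%) and rarest among bright genes (2 of 693, 0.289%). The bright exceptions, named after their values were seen, were Ly6c1 and the unnamed gene model Gm10923. Ly6c1, of the Ly6C surface antigens of monocytes, read 16.48, 15.46 and 15.45, and its second probe 15.22, 14.14 and 14.13, so both were higher in WT 1. Gm10923 read 17.25, 15.85 and 17.20 and was lower in WT 2.

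WT 1 was lower than both other arrays by more than 1 in 41 genes (0.187% of all) and higher in 36 (0.165%). Of these, 11 of the 41 and 7 of the 36 were on a list, beside 413 of all 21872 genes. The lists were chosen with earlier results of these data known. In 27 of the 36 higher genes, and in 2 of the 41 lower ones, both other arrays were near the floor. The largest drops were those of Camp, Ltf and Ngp. Camp read 7.69 in WT 1, against 10.92 and 10.79 in WT 2 and WT 3. Ngp read 6.81 in WT 1, against 9.72 and 9.76. In WT 1 both were below the floor edge. Chil3, a chitinase-like protein of neutrophils and macrophages, read 9.16 in WT 1, against 10.62 and 10.70. Retnlg, resistin-like gamma, was near the floor in WT 1 and read 8.34 and 8.25 in the other arrays. With Ltf and S100a9 this makes 6 of 27 secondary granule and mature neutrophil genes (22.2%), beside 0.978% of all genes. Of the 27 genes 22 were lowest in WT 1, beside 30.9% of all genes. The median difference of WT 1 from the mean of the others was only -0.13, and 10 of the 27 genes lay near the floor. S100a8 and Csf3r differed by less than 0.5 between arrays. The 4 members highest in WT 1 included Hp (15.10, 14.63 and 14.60) and Wfdc21 (11.44, 10.70 and 10.63). With WT 1 left out, 0 of the 27 genes spanned more than 1. That count gives no separate support, as WT 1 was the array apart in all 6.

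Primary granule, monocyte and NADPH oxidase genes lay the other way in the same array. Of 16 primary granule genes 14 were highest in WT 1, beside 44.5% of all genes, and the median difference from the mean of the others was 0.31 for WT 1, -0.16 for WT 2 and -0.14 for WT 3. None of the 16 spanned more than 1. Of 18 measured monocyte and macrophage genes 16 were highest in WT 1, with a median difference of 0.60. Klf4, a factor of monocyte maturation, read 8.84, 7.90 and 7.83, and F13a1, a coagulation factor chain made by monocytes, 14.08, 13.17 and 13.28. Ccl9, a chemokine (13.97 ± 0.03), and Fn1, fibronectin (7.09, 7.15 and 7.09), lay level across the arrays. All 5 measured NADPH oxidase genes, of which Cybb is also on the monocyte list, were highest in WT 1, with a median difference of 0.32. Over all genes the median difference of WT 1 was 0.03.

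Erythroid genes split in both directions, and the median difference of WT 1 over the list was -0.06. Of 20 measured members 9 (45.0%) spanned more than 1, beside 0.978% of all genes, and in each WT 1 stood apart. Some of the 9 lay near the floor. The globin gene Hbb-bs (7.71, 6.57 and 6.45) and Ermap (6.54, 7.71 and 7.59) were below its edge in every array. Hbb-b2 was below it by its mean of 7.49. The 5 globin genes were higher in WT 1. Hba-a2, an alpha globin, read 12.71 in WT 1, against 11.31 and 11.30. Hbb-b1, a beta globin, read 10.14 in WT 1, against 8.83 and 8.78. The alpha globin genes are near-identical copies of each other, as are the beta globin genes, so these 5 readings are not all independent. The other 4 were lower in WT 1, among them Aqp1, a water channel of red cells (8.17, 10.07 and 10.08), and Gfi1b, a repressor of erythroid and megakaryocyte cells (8.87, 10.28 and 10.12). Factors of early erythroid and mast cell development were lower in WT 1 by less than 1: Gata1 read 10.01, 10.71 and 10.76, Gata2 10.34, 11.30 and 11.29, and Klf1 7.07, 7.66 and 7.92. Epor, the erythropoietin receptor, read 7.92, 8.85 and 8.68. Hemgn (14.13, 14.46 and 14.49) and Nfe2 (13.73, 13.71 and 13.80), both nuclear proteins of red cell progenitors, were the brightest of the list, and neither spanned more than 1. With WT 1 left out, 0 of the 20 members spanned more than 1, which gives no separate support, as WT 1 was the array apart in all 9.

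Genes of mast cells, basophils and eosinophils were lowest in WT 1 in 13 of 19 cases, beside 30.9% of all genes. Hdc, histidine decarboxylase, was bright at 14.17, 14.22 and 14.25, and Cpa3, a mast cell carboxypeptidase, read 12.80, 13.08 and 13.28. Prss34, a mast cell and basophil protease, read 8.60 in WT 1, against 9.79 and 9.84. In a sorted bulk sample, fewer cells of a type and less RNA per cell cannot be told apart. The part of these other cell types in the differences of WT 1 was not tested.

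**Figure D4:**
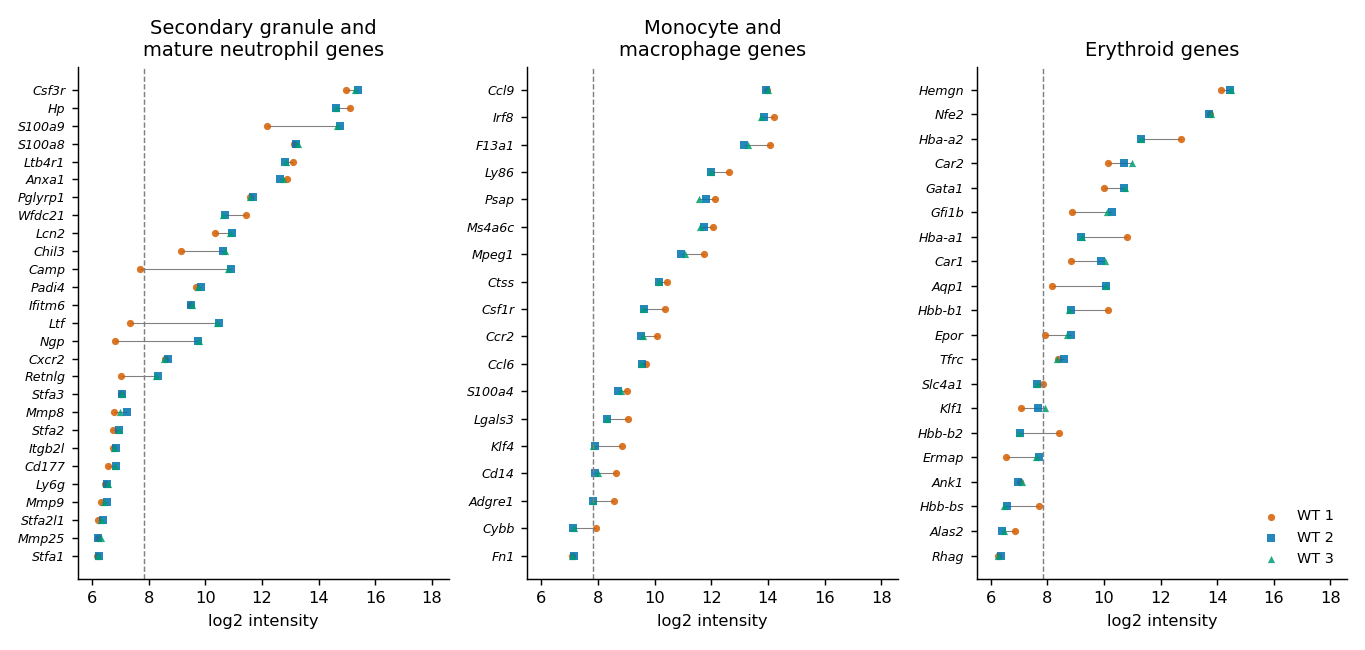
Log2 intensity (horizontal axis) of secondary granule and mature neutrophil, monocyte and macrophage, and erythroid genes (rows) in WT 1 (orange circles), WT 2 (blue squares) and WT 3 (green triangles), with a grey line over the span and the floor edge at 7.83 dashed. WT 1 lies left of the others for Camp, Ltf, Ngp and S100a9, right for most monocyte genes, and on either side for erythroid genes.

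Single genes of other lists and of no list also stood apart in WT 1. Pmaip1, which encodes the death-promoting protein NOXA, read 9.71, 7.56 and 7.46. Irf4, a factor of lymphoid and dendritic cells, read 7.58, 6.38 and 6.36, near the floor in each array. Catsper3, a sperm calcium channel, showed the largest gap upward, at 10.35, 6.11 and 6.05, while its other probe read 6.58, 6.58 and 6.45. Rhox8, a reproductive homeobox gene, read 12.61, 14.28 and 14.20. Sphk1, sphingosine kinase, was lower in WT 1 on both probes, at 7.28, 9.05 and 8.86 and at 6.68, 7.57 and 7.44.

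WT 2 stood apart mostly upward and mostly in genes that read near the floor in the other arrays. It was higher than both by more than 1 in 68 genes (0.311%) and lower in 6 (0.0274%). In 54 of the 68 (79.4%) WT 1 and WT 3 were both near the floor. The median gap was 3.59 and the widest 9.40, that of Pfpl, a perforin-like gene, at 6.52, 15.92 and 6.42. Mapk11, a p38 kinase, read 8.32, 15.39 and 8.35. Mcpt4, a mast cell protease, read 7.31, 12.30 and 7.03, and was the only member of a list among the 68. Of the 13 other probes of these genes, 0 moved the same way by more than 0.5. Among named genes lower in WT 2 the largest drop was that of Lrrc8c, a volume-regulated anion channel subunit, at 7.67, 5.71 and 7.60.

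WT 3 was higher than both others by more than 1 in 29 genes (0.133%) and lower in 0 (0%). In 20 of the 29 the other arrays were near the floor, and the median gap was 2.02. Trim50, a ubiquitin ligase, read 6.21, 6.35 and 11.39, and Pld5, of the phospholipase D family, 6.29, 6.43 and 11.23. Esam, an adhesion protein of stem cells and endothelium, read 6.21, 6.38 and 8.63 and was the only member of a list. Of 6 other probes, 0 moved the same way by more than 0.5. For WT 1 that number was 2 of 10, those of Ly6c1 and Sphk1.

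**Figure D5:**
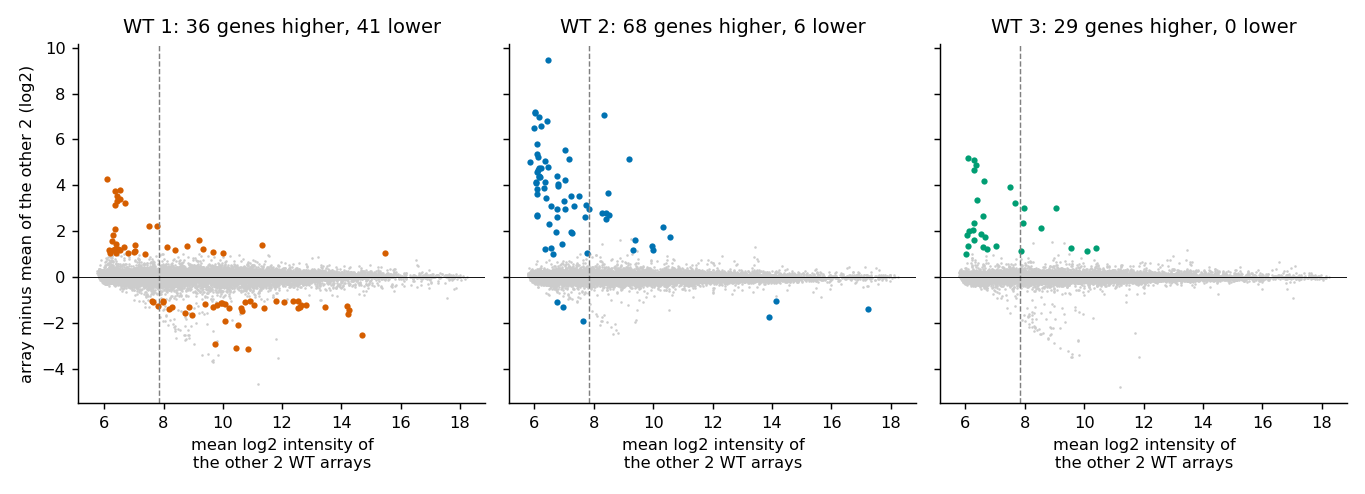
Each array minus the mean of the other 2 (vertical axis, log2) against the mean log2 intensity of the other 2 (horizontal axis), 1 point per gene and 1 panel per array. Coloured points are genes in which that array lay more than 1 from both others (WT 1 36 higher and 41 lower, WT 2 68 and 6, WT 3 29 and 0), and the dashed line marks the floor edge; grey points far below 0 in the outer panels are genes raised in another array.

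Probes of the same gene lay further apart than arrays, whose median span over a gene was 0.153. Of the 2637 genes with more than 1 probe, 1510 (57.3%) had a gap of more than 1 between their brightest and dimmest probe, with a median gap of 1.34. In 379 it was more than 4. The largest gaps among listed genes were those of Siglech (8.25), Ctsa, the lysosomal cathepsin A (7.75), Dad1, of the oligosaccharyltransferase (7.62), Gaa, acid alpha-glucosidase (7.01), Lepr (5.79) and Uhrf1 (5.56). Of 110 bright genes with more probes, 38 had another probe near the floor. The choice of the brightest probe thus sets the level of such genes.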

How the data were processed

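Expression was measured on 3 one-colour arrays of WT GMPs. The authors deposited log2 intensity values in 1 table; the tools listed per the submitters' processing notes are limma, affy and RMA, without versions or roles, and the background correction is not given in the sources used here. The 3 arrays shared 1 distribution as deposited, with probe medians of 7.03, 7.04 and 7.04, and were not normalized further. Arrays give no read depth, so their number limits the precision.

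Probe names came from a table of the array's annotation: 24877 probes had 1 symbol, 0 had several, and 13000 had none and are described apart. Of the named probes 24606 were matched by gene ID to a table of mouse genes. No filter on dim probes was applied. An array was called apart where it differed from both others by more than 1. Only this call was tested on simulated data, in which every gene had the same SD, and the other counts were not.

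Of 448 genes on 30 lists, 413 were measured. Members and lists were chosen with earlier results of these data known. The genes named are the 25 brightest, the 4 brightest and 2 dimmest of each list, 8 lists in full, the 6 largest gaps per array and direction, listed genes nearest the median, the steadiest bright genes, the largest probe gaps, and up to 4 members furthest up or down in an array that stood apart. Unnamed gene models, antigen receptor segments and, among the brightest, ribosomal proteins were skipped. Promoters (RefSeq, GRCm38.p6) were matched by gene ID for 17074 genes (78.1%), so a comparison of promoters between bands was void and was not made. Alternatives were other choices of probe, normalization, cuts and left-out arrays. Python 3.11.15, numpy 2.4.6, pandas 2.3.3 and matplotlib 3.10.9 were used.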

Additional observations from a re-analysis of the deposited data

How the results depend on the processing

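Counts near the floor, of bright genes and of genes with an array apart depended mainly on where the limits were drawn. With the floor at the highest mean of a Y-linked gene, 1515 genes lay near it in place of 11780; without 1 array the number was 11757 to 11909. With the bright limit at 13 or 15, 1323 or 351 genes were bright in place of 693; without 1 array it was 698 to 708. Genes spanning more than 1 numbered 214, those spanning more than 0.5 numbered 895 and more than 2 numbered 88; above the floor there were 134, and without 1 array 109 to 169, the lowest being 109 without WT 1 and 116 without WT 2, as 2 arrays span less than 3. Above the floor, genes higher in WT 1, WT 2 and WT 3 numbered 11, 42 and 14 in place of 36, 68 and 29, and those lower in WT 2 numbered 3 in place of 6. With the mean of all probes, or the probe chosen over all 9 arrays, 1 gene was lower in WT 3 in place of 0. The median differences of WT 1 in the primary granule, secondary granule, monocyte and erythroid lists kept their sign under the 4 alternatives of probe and normalization. They ranged from 0.274 to 0.317, from -0.132 to -0.115, from 0.592 to 0.612 and from -0.0642 to -0.0515 in that order. The arrays shared 1 distribution as deposited, and quantile normalization changed the named levels by a median of 0.0009. The probe chosen over all 9 arrays moved 0 of 541 levels by more than 1 SD. These alternatives could thus hardly change the sign, and the kept sign gives no separate support. Of 541 named levels, 56 moved by more than 1 SD with the mean of all probes, 27 of them by more than 1. The counts of list members without each array were added after seeing the data: without WT 1, 0 secondary granule and 0 erythroid genes spanned more than 1, and without WT 2 or WT 3 it was 6 and 9. WT 1 was the array apart in each of these genes, so the counts give no separate support. No paired analysis was possible because only 1 group is described. The cause of the other changes was not tested. Without detection flags, signal over background is not known here, and with 3 arrays the SD of a single gene is itself uncertain.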

Other observations

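In the BCL2 family Bak1, which opens the mitochondrial membrane, read 13.42, 13.02 and 13.10, Bad 12.37 ± 0.17 and Bid 12.15 ± 0.22, both promoters of cell death, and Bcl2l1, the protective BCL-XL, 10.81 ± 0.05. Bik, a promoter of cell death, was near the floor at 6.48 ± 0.12. Of 14 measured interferon-stimulated genes 7 were near the floor, beside 53.9% of all genes, down to Ifit3 at 6.37 ± 0.11, while Bst2, tetherin, read 12.65 ± 0.12. Of 14 immediate early genes, which rise within minutes of handling or stimulation, 8 were near the floor, a count close to that share. Jun led them at 10.28, 11.22 and 10.95, and Egr1 read 6.36 ± 0.12.

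Among megakaryocyte genes Cd9, a tetraspanin, read 10.84 ± 0.08, Itgb3, an integrin chain, 10.27 ± 0.14, and Pf4, platelet factor 4, 10.66, 9.97 and 9.84, highest in WT 1. Ppbp, pro-platelet basic protein, was near the floor at 6.22 ± 0.13. Glycolysis genes had a median of 14.84, from Gapdh at 17.24 ± 0.04 to the glucose transporter Slc2a1 at 9.62 ± 0.07.

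Of 13000 probes that the annotation used here leaves unnamed, 676 were bright and 9426 were near the floor. WT 1 was lower than both other arrays by more than 1 in 111 of them (0.854%), beside 0.187% of the named genes, and higher in 16. For WT 2 the numbers were 25 higher and 8 lower, and for WT 3 17 and 1.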
